A study of Homo sapiens with 6 samples.

Results

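Antisense RNAs that carry the name of a neighbouring gene were examined in libraries labelled as human PANC-1 cells. The labels name a short hairpin RNA against STN1 in one group and a control hairpin in the other. Rows of the deposited count table were taken when their symbol ended in -AS1, -AS2 or -AS3 and their reads summed over the 6 libraries reached 300. Of 60623 rows kept in the table, 1249 carried such a name, and 168 of these reached the minimum and are described here. Members were thus chosen by their own summed reads, the same counts that the comparison uses. Of the 168, 70 reached 300 reads in each group alone, 25 in the control group only, 30 in the shSTN1 group only, and 43 in neither group alone. Their summed reads ran from 308 to 13650, with a median of 690. At the edge of the rule, 7 members had 308 to 328 reads, among them RALY-AS1 and PRKAG2-AS1, and 14 rows with 270 to 299 reads fell just outside.

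PANC-1 is an established line from a human pancreatic ductal carcinoma. Bulk RNA sequencing covered 3 libraries titled shSTN1 and 3 with a control hairpin, all labelled as that line, with no other treatment named. In 2 of the libraries titled shSTN1, the genotype entry names STN2 or STN3 knockdown instead, and grouping followed the titles. Whether the cells were a pool or a clone after the hairpin is not given in the sources used here. Each library is called a biological replicate without further detail, so what a p-value measures here is library-to-library spread, and that spread may be technical.

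An antisense RNA is transcribed from the strand opposite to another gene, and its symbol names that gene. Many start close to the partner's own start and run away from it, so that both transcripts leave a shared promoter region in opposite directions; others overlap the partner's end or lie within an intron. Some are known to act on RNA processing, on chromatin or on the partner's expression, and for most no role is established.

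The 6 libraries held 17357223 to 23336942 counted reads. The reads of the 168 members made up 0.179% to 0.186% of a control library and 0.158% to 0.165% of a library titled shSTN1. STN1, a subunit of the CST complex that acts at telomeres, was not lower beyond that spread: control replicates gave 387, 346 and 278 reads and shSTN1-titled replicates 303, 306 and 275. Its level was 16.4 ± 1.95 against 14.8 ± 0.793 CPM (counts scaled to library size; mean ± SD of 3 libraries, as throughout), a log2 fold change of -0.15 with an adjusted p of 0.253. The targeted gene is thus no check of the labels, and directions below are those of libraries labelled shSTN1 against libraries labelled control. Of 12 markers of ductal and carcinoma epithelium, 11 were tested and all 11 were higher in the libraries labelled shSTN1. Their summed level was 1140 to 1225 CPM in control and 6788 to 7022 CPM in the libraries labelled shSTN1, and none was at 0 in either group. Of 12 genes known from an embryonic kidney line, 11 were lower and PAX2 was higher. Their summed level was 1245 to 1301 CPM in control and 283 to 325 CPM in the libraries labelled shSTN1. IRS4, a marker of that kidney line, had 20505 reads in control and 3 in the libraries labelled shSTN1, and 4 of the 12 genes had no read there. The control libraries thus carry these kidney-line genes beside lower levels of the epithelial ones, which goes against the cell line label that both groups share. These differences run through every comparison below, and their part in it was not tested. The groups' differences cannot be told apart from a difference between the cells that carried them.

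The stretch of DNA between 2 facing start sites is the shared promoter region of a pair, and it is shown for the pairs with facing starts whose directions are described further on. In RefSeq (GRCh38.p14), 126 members and 130 partners had a start site, and 29 of the 101 matched pairs faced each other with starts 1 to 250 bases apart. The pairs shown are up to 3 per direction with both genes past the test, by the smaller of the 2 absolute log2 fold changes. Each line reads 5′ to 3′ toward the start of the antisense RNA on its own strand. Capitals mark letters of a searched motif on either strand. The motifs were the GC box GGGCGG, the CCAAT box CCAAT, the TATA box TATAAA, the ETS core CCGGAAG, the AP-1 site TGACTCA and the E-box CACGTG. GENCODE 29 places some of these starts elsewhere, so the stretches can lie inside a transcript in that annotation. In the first 3 pairs both genes were higher in the libraries labelled shSTN1.
TM4SF1-AS1 and TM4SF1, chr3:149377650-149377777, plus strand: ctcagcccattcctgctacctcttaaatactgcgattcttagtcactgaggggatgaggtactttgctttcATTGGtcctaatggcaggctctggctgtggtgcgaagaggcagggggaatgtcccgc
TMEM9B-AS1 and TMEM9B, chr11:8964443-8964674, plus strand: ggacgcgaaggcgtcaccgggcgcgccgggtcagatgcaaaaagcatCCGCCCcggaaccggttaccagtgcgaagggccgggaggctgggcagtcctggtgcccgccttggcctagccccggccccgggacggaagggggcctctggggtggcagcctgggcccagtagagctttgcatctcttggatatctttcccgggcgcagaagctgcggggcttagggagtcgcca
TRAM2-AS1 and TRAM2, chr6:52577061-52577201, plus strand: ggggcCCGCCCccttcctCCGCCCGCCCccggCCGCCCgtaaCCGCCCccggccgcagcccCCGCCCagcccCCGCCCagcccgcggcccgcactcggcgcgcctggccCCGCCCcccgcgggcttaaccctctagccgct

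In the next 3 pairs both genes were lower.
MNX1-AS1 and MNX1, chr7:157010664-157010856, plus strand: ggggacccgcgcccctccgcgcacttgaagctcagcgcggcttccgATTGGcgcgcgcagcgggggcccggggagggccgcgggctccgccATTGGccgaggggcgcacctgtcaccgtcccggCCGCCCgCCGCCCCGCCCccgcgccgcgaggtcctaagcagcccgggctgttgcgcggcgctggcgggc
RBM26-AS1 and RBM26, chr13:79406256-79406308, plus strand: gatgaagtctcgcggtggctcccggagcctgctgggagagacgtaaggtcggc
FOXD3-AS1 and FOXD3, chr1:63322459-63322566, minus strand: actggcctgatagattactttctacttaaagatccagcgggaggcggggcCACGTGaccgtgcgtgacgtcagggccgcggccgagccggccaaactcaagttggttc

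In the last 2 pairs the antisense RNA and its partner went in opposite directions.
ZNF674-AS1 and ZNF674, chrX:46545422-46545489, plus strand: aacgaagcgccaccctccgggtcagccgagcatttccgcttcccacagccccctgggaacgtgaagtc
KTN1-AS1 and KTN1, chr14:55580093-55580206, minus strand: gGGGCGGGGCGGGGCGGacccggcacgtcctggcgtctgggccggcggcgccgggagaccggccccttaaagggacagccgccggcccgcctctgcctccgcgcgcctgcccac

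These stretches are short and mostly rich in G and C. GC content ran from 53.1% between TM4SF1-AS1 and TM4SF1 to 85.8% between TRAM2-AS1 and TRAM2, which holds 8 GC boxes in 141 bases. The GC box stood in 57.1% of the 161 promoter windows of the members (250 bases before to 50 after a start), in 61.8% of the partners' windows and in 45.0% of all 35116 windows. The ETS core stood in 18.0%, 14.0% and 10.3%, and the TATA box in 6.21%, 9.66% and 11.5% in the same order. The shares were 31.1%, 32.4% and 34.6% for the CCAAT box, 7.45%, 6.28% and 7.26% for the E-box and 3.73%, 1.93% and 4.95% for the AP-1 site. Median GC content of the windows was 64.3% for members, 65.0% for partners and 58.7% for all. A match describes letters only.

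Of the 168 antisense RNAs, 61 were higher and 63 were lower in the libraries labelled shSTN1 at an edgeR adjusted p under 0.05, and 44 did not pass. That is 73.8%, beside 74.1% of all 17451 genes tested (35.6% higher and 38.5% lower), and beside 79.0% of the 13163 genes with 300 or more reads. The share of antisense RNAs called is close to that background and is no result about them. At least 2-fold differences were called for 29 higher and 33 lower members, 62 of the 168. The background is 34.6% of all genes tested (15.7% higher, 19.0% lower). Among the 13163 genes with 300 or more reads, 3837 were called at 2-fold (1760 higher, 2077 lower). The difference between these shares was not tested. The groups did not overlap for 132 members, beside 75.6% of all genes tested and 80.1% of those with 300 or more reads. The median log2 fold change was 0.04 for the members and -0.03 for all genes. The rows with too few reads for the rule, 1081 in all, had 251 tested genes with 69 higher and 70 lower, a share of 55.4% past the test. Their reads are fewer, so this share is not comparable with those above, and no difference from other genes is read from it. Rows of related names are given as counts only. Of those ending in -AS, -DT, -IT1 and -OT1, 10, 54, 11 and 1 were tested, and 50%, 53.7%, 27.3% and 100% passed.

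**Figure D1:**
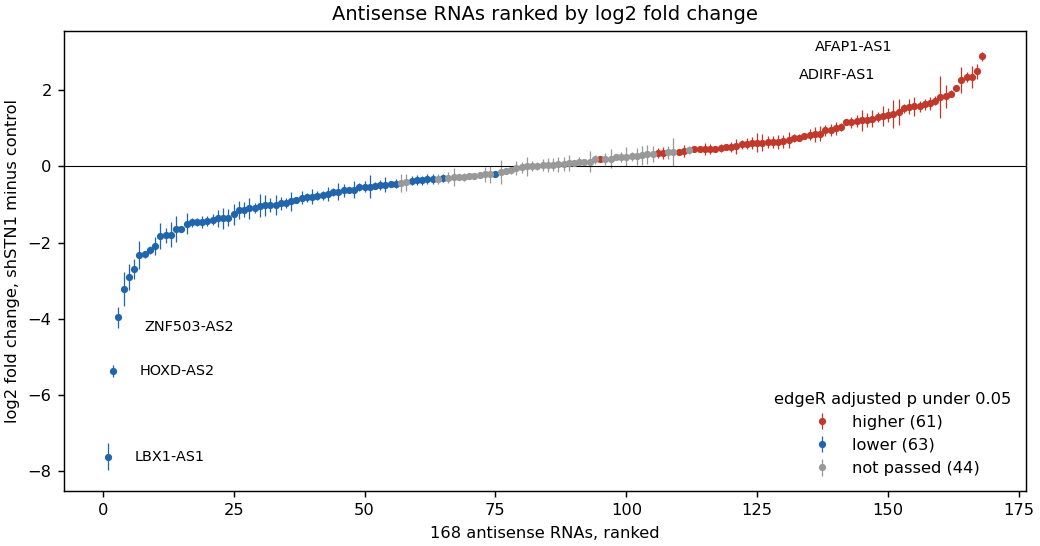
Log2 fold change (shSTN1 minus control, y axis) of the 168 antisense RNAs in rank order (x axis), with bars of 1 SE and colours for the edgeR call at an adjusted p under 0.05. LBX1-AS1 at -7.62 and HOXD-AS2 at -5.38 lie below all others, and AFAP1-AS1 at 2.89 is the highest.

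Among the most abundant members, FGD5-AS1 had the most reads. It lies on chromosome 3 (positions 14920347 to 14948424, minus strand, GRCh38) and reads toward FGD5, whose own reads were too few to test. FGD5-AS1 measured 93.7, 94.2 and 90.6 CPM in control and 135, 132 and 129 CPM in the libraries labelled shSTN1, and the groups did not overlap. The log2 fold change was 0.51 (SE 0.0266, adjusted p = 3.5e-08). FGD5 measured 0.447 to 0.813 CPM in control and 0.0458 to 0.227 CPM in the libraries labelled shSTN1. The most abundant antisense RNA thus stood beside a partner with few counted reads. OIP5-AS1, an RNA known to bind the microRNA miR-7, measured 63.5, 71.8 and 56.9 CPM in control and 50.9, 45.9 and 43.6 CPM in the libraries labelled shSTN1 (log2 fold change -0.45, adjusted p = 2.56e-05). VPS9D1-AS1, which lies inside VPS9D1, fell from 48.1, 48.8 and 57.0 CPM to 11.6, 11.8 and 10.3 CPM (log2 fold change -2.19, adjusted p = 6e-19). It shares 29.5% of its exonic bases with VPS9D1. THAP9-AS1 (-0.81), GABPB1-AS1 (-0.76) and GATA2-AS1 (-0.33) also fell on the log2 scale, and MAGI2-AS3 (0.65) and NUTM2A-AS1 (0.46) rose. NUTM2A has near-identical copies in the genome, so the values of that pair are uncertain. Calls near the threshold ended under some alternatives. TP73-AS1 measured 66.7, 68.8 and 72.5 CPM against 79.2, 77.9 and 80.4 CPM, a log2 fold change of 0.19 (adjusted p = 0.0189), and its p was 0.0947 when control replicate 1 was left out and 0.0685 when shSTN1 replicate 3 was. It was also 0.0544 with upper-quartile factors and 0.096 without the filter on low counts. MRPL20-AS1 was lower by 0.20 on the log2 scale (36.6, 38.7 and 37.4 CPM against 36.1, 30.8 and 31.0 CPM, adjusted p = 0.0447), and its p was 0.0788 without control replicate 2, 0.189 without shSTN1 replicate 2 and 0.191 without shSTN1 replicate 3.

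The lowest values were those of LBX1-AS1, HOXD-AS2 and ZNF503-AS2. LBX1-AS1 (chromosome 10, positions 101229594 to 101270148, plus strand) starts 200 bases from LBX1, a homeobox gene of muscle and spinal cord development. It measured 10.5, 12.5 and 10.2 CPM in control and 0.0977, 0 and 0.0567 CPM in the libraries labelled shSTN1. It had 685 reads in control and 3 in the libraries labelled shSTN1, a ratio of 222 with a 95% exact interval of 75.7 to 1080 that covers counting error only. The fitted log2 fold change was -7.62 (adjusted p = 3.71e-19). LBX1 went the same way, from 5.68, 7.11 and 6.61 CPM to 0.195, 0.137 and 0.397 CPM (log2 fold change -4.75). The pair was thus nearly undetected in the libraries labelled shSTN1, as the panels of library values show. ZNF503-AS2 (chromosome 10, positions 75401519 to 75408982, plus strand) measured 13.8, 14.6 and 15.6 CPM in control and 0.586, 1.19 and 1.02 CPM in the libraries labelled shSTN1 (log2 fold change -3.96, SE 0.282, adjusted p = 3.11e-18). Its partner ZNF503, a zinc finger repressor, measured 139, 154 and 148 CPM against 9.91, 9.3 and 9.08 CPM. Both genes of this pair fell by 3.96 on the log2 scale, without overlap between groups.

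MNX1-AS1 and FOXD3-AS1 fell less than their partners. MNX1-AS1 measured 7.7, 6.85 and 8.34 CPM in control and 3.27, 1.47 and 2.55 CPM in the libraries labelled shSTN1 (log2 fold change -1.65, adjusted p = 1.74e-08). MNX1, a homeobox gene of pancreas and motor neuron development, measured 37.7, 45.5 and 39.5 CPM against 5.37, 5.86 and 6.01 CPM (log2 fold change -2.83). For FOXD3-AS1 the log2 fold change was -1.01 (5.1, 4.65 and 3.85 CPM against 1.9, 1.88 and 3.06 CPM), and for FOXD3, a forkhead gene of neural crest and pluripotent cells, it was -3.09. DLX6-AS1 (-1.5) and DLX6 (-1.17) fell together, as did FOXD2-AS1 (-1.09) and FOXD2 (-0.52). The genes of the embryonic kidney line given above were lower in the same libraries, and their part in these differences was not tested.

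The antisense RNAs of the HOX clusters have no partner row, since their symbols name a cluster. HOX genes encode the transcription factors that set position along the body axis. HOXD-AS2 (chromosome 2, positions 176121611 to 176137098, minus strand) measured 18.6, 23 and 19.7 CPM in control and 0.44, 0.596 and 0.397 CPM in the libraries labelled shSTN1, without overlap (log2 fold change -5.38, SE 0.161, adjusted p = 1.88e-21). HOXA-AS3 fell from 6.16, 8.14 and 5.42 CPM to 1.66, 1.47 and 0.738 CPM (log2 fold change -2.33, adjusted p = 2.06e-10). HOXA-AS2, in the same cluster, measured 7.56, 7.43 and 7.53 CPM against 8.6, 7.7 and 7.83 CPM and did not pass (log2 fold change 0.10, adjusted p = 0.538). The median log2 fold change of the 20 tested neighbours within 500 kb of either, the other antisense RNA included, was -2.90. HOXA3, one of the genes that overlap both, had 0.91. In the HOXB cluster HOXB-AS1 (1.58), HOXB-AS2 (1.21) and HOXB-AS3 (0.75) were all higher on the log2 scale. HOXB-AS1 measured 2.79, 3.85 and 3.63 CPM in control and 13.4, 8.89 and 8.34 CPM in the libraries labelled shSTN1. HOXC-AS3 rose from 1.2, 1.92 and 0.921 CPM to 4.74, 5.41 and 4.54 CPM (log2 fold change 1.84, adjusted p = 4.42e-08). HOXC-AS2 was higher by 0.36 (adjusted p = 0.0282), and its p was 0.165 without control replicate 3, 0.0701 without shSTN1 replicate 1 and 0.0555 without shSTN1 replicate 3. With all libraries it was 0.0504 by DESeq2 and 0.0702 without the filter on low counts. HOXA-AS3, HOXB-AS3, HOXB-AS1 and HOXD-AS2 share 26.5% to 39.3% of their exonic bases with other genes on either strand. Their reads may thus include those of the genes that overlap them.

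The highest values were those of AFAP1-AS1, an RNA often described as raised in carcinomas, the pancreatic ones included. AFAP1-AS1 (chromosome 4, positions 7754090 to 7778928, plus strand) measured 12.4, 12.6 and 10.0 CPM in control and 81.5, 89.6 and 89.0 CPM in the libraries labelled shSTN1. The log2 fold change was 2.89 (SE 0.114, adjusted p = 5.22e-23). AFAP1, which encodes an actin filament associated protein, went from 58.5, 74.9 and 59.8 CPM to 114, 108 and 110 CPM, a smaller log2 fold change of 0.78. The epithelial markers given above were higher in the same libraries, and their part in this was not tested. ADIRF-AS1 rose from 1.2, 2.01 and 1.52 CPM to 8.45, 9.25 and 9.25 CPM (log2 fold change 2.50), whereas the row of ADIRF held no read in any library. MIR1-1HG-AS1, opposite the host gene of miR-1-1, rose from 22.1, 19.2 and 23.1 CPM to 79.2, 76.2 and 86.5 CPM (log2 fold change 1.91, adjusted p = 4.83e-19). MIR1-1HG itself was low, with 1.16, 0.805 and 0.433 CPM against 1.81, 2.57 and 2.38 CPM, and also passed (log2 fold change 1.47). FLG-AS1 (2.05) and FLG (2.42), the gene of the epidermal protein filaggrin, rose together on the log2 scale. So did PLBD1-AS1 (1.82) and PLBD1 (2.36), SOCS2-AS1 (1.53) and SOCS2 (1.5), and ZNF790-AS1 (2.35) and ZNF790 (1.1). PLBD1-AS1 shares 43.5% of its exonic bases with PLBD1, so its value is uncertain. ZNF529-AS1 rose by 1.63 where ZNF529 measured 12.4, 17.6 and 12.4 CPM against 11.7, 17.2 and 15.6 CPM and did not pass. ST20-AS1, which has no partner row, rose by 1.73.

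DLGAP1 has 2 antisense RNAs inside its span, and both rose with it. DLGAP1-AS2 (chromosome 18, positions 3603000 to 3608336, plus strand) measured 4.43, 3.76 and 3.79 CPM in control and 21.1, 17.4 and 22.9 CPM in the libraries labelled shSTN1 (log2 fold change 2.35). DLGAP1-AS1 measured 1.49, 0.85 and 0.704 CPM against 4.59, 6.23 and 3.97 CPM (log2 fold change 2.27). DLGAP1, a scaffold gene of the postsynaptic density, measured 2.65, 1.74 and 1.3 CPM against 8.06, 8.15 and 7.89 CPM (log2 fold change 2.07). Neither antisense RNA shares an exonic base with another gene in the annotation used. Reads from introns of DLGAP1 could still count toward both, since the kit named in the labels does not mark the strand. Their part in these values was not tested. The median log2 fold change of the 9 tested neighbours within 500 kb was 2.01 for each. These neighbours include the other antisense RNA, so the median is not independent of the values above.

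Of the 168 members, 158 had a row for the gene named before the hyphen (155 different genes, since DLGAP1, PAXIP1 and TSPEAR have 2 antisense RNAs each). In the annotation, 91 of these pairs stood head to head, 67 of them with starts within 1000 bases. Another 36 overlapped tail to tail, 16 antisense RNAs lay inside the partner's span and 15 around it. Partners were tested in 154 pairs. Both genes passed the test in 83 pairs, 62 in the same direction (28 higher, 34 lower) and 21 in opposite directions. In 29 pairs only the antisense RNA passed, in 30 only the partner, and in 12 neither. As background, 1097 head-to-head pairs of tested protein-coding genes had starts within 1000 bases. Both genes passed in 611 of them, only the plus-strand gene in 196, only the minus-strand gene in 200, and neither in 90. How many antisense pairs passed in both genes is therefore no result about them.

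The same-direction share was 74.7% of the pairs with both genes past the test. For head-to-head pairs with starts within 1000 bases it was 75.6% (31 of 41), and for the other pairs 73.8% (31 of 42). Among 611 head-to-head pairs of protein-coding genes with starts within 1000 bases and both genes past the test, it was 72.2%. Between antisense RNAs and the nearest other tested gene it was 66.3% (59 of 89). Where several genes overlapped the antisense RNA, the first by start position was taken. The share therefore lies near that of coding gene pairs and was not tested against it. Of pairs whose genes share no exonic base, 18 went the same way and 4 opposite, a share of 81.8%. Of pairs whose genes share exonic bases, 44 went the same way and 17 opposite, a share of 72.1%. In the pairs with starts 1 to 250 bases apart in RefSeq, 13 went the same way and 2 opposite. These subsets are small and their shares were not tested against each other.

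**Figure D2:**
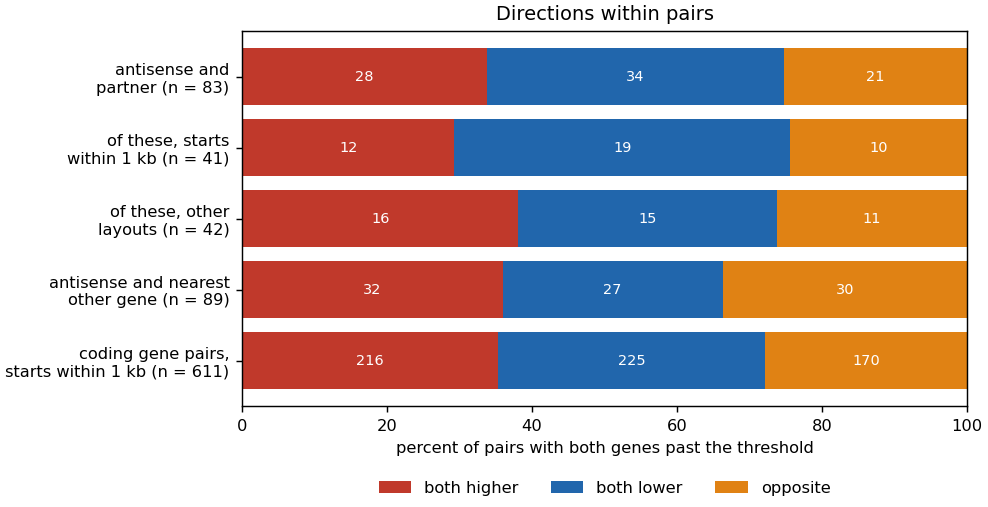
Percent of pairs (x axis) in which both genes were higher, both lower, or opposite, among pairs with both genes past an edgeR adjusted p of 0.05; numbers in the bars are pairs, and "starts within 1 kb" means head to head. The opposite share is 21 of 83 for antisense RNA and partner and 170 of 611 for coding gene pairs.

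**Figure D3:**
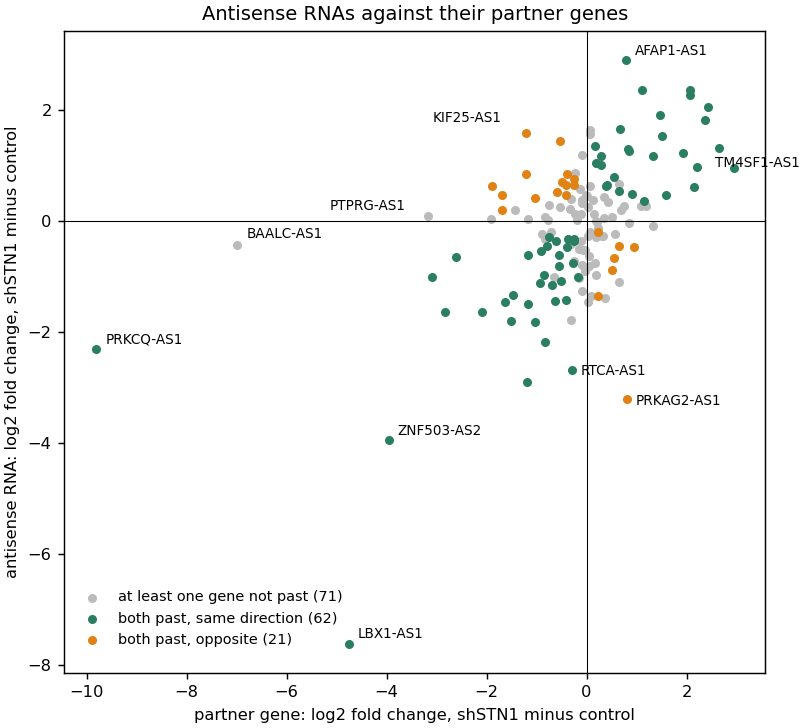
Log2 fold change of each antisense RNA (y axis) against that of its partner (x axis) for 154 pairs, coloured by the directions of the genes past the test. LBX1-AS1, ZNF503-AS2 and PRKCQ-AS1 stand far down and to the left with their partners, and PRKAG2-AS1 lies low on the side of the partners that rose.

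Pairs that fell together included WARS2, SLC16A1, CIRBP and THAP7 with their antisense RNAs. WARS2-AS1 starts 275 bases from WARS2, which encodes the mitochondrial tryptophanyl-tRNA synthetase. It measured 34.0, 36.4 and 34.9 CPM in control and 10.7, 12.1 and 11 CPM in the libraries labelled shSTN1, and WARS2 measured 22.8, 21.8 and 20.7 CPM against 5.27, 5.18 and 4.77 CPM. The log2 fold changes were -1.64 and -2.10, with no overlap in either gene. SLC16A1-AS1 (-1.46) fell beside SLC16A1 (-1.64), the gene of a monocarboxylate transporter that carries lactate. CIRBP-AS1 (-1.81) fell beside CIRBP (-1.51), which encodes a cold-inducible RNA-binding protein, and shares only 0.402% of its exonic bases with it. THAP7-AS1 (-1.82) fell with THAP7 (-1.04). However, THAP7-AS1 shares 48.0% of its exonic bases with other genes (10.5% with THAP7), so its value is uncertain.

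Within same-direction pairs the sizes could differ widely. RBM26-AS1 measured 9.1, 7.7 and 8.34 CPM in control and 1.47, 1.19 and 0.624 CPM in the libraries labelled shSTN1 (log2 fold change -2.90). RBM26, an RNA-binding protein gene whose RefSeq start faces it across the 53 bases printed above, measured 119, 119 and 101 CPM against 50.9, 48.4 and 48.9 CPM (log2 fold change -1.20). RTCA-AS1 fell by 2.69 on the log2 scale and RTCA by 0.30, but RTCA-AS1 shares 68.0% of its exonic bases with other genes and is uncertain. The reverse order held for PRKCQ, the gene of protein kinase C theta. PRKCQ had 340 reads in control and none in the libraries labelled shSTN1, at least 110-fold lower with a floor of 3 reads over the group. PRKCQ-AS1, which starts 118 bases away and shares no exonic base with any gene, kept a measurable level. It measured 5.39, 6.08 and 5.96 CPM in control and 1.22, 1.05 and 1.25 CPM in the libraries labelled shSTN1 (log2 fold change -2.31, adjusted p = 4.69e-11). TM4SF1-AS1 rose by 1.32 on the log2 scale (2.02, 1.3 and 2.33 CPM against 5.03, 4.12 and 4.88 CPM) beside a larger rise of 2.65 in TM4SF1, a membrane protein gene. TM4SF1 measured 309 to 354 CPM in control and 1900 to 2172 CPM in the libraries labelled shSTN1.

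**Figure D4:**
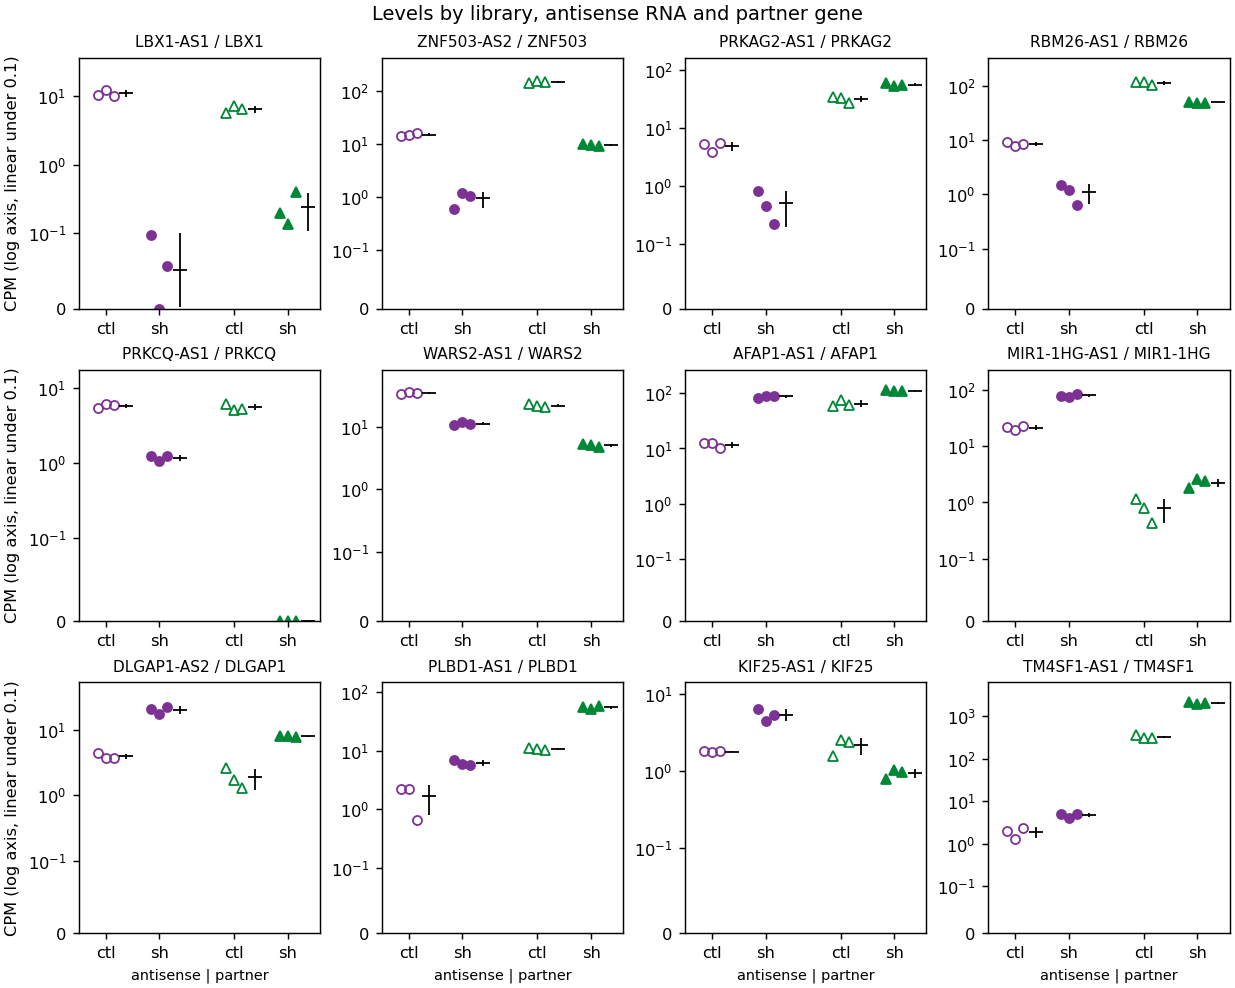
CPM by library (y axis, logarithmic above 0.1 and linear below) for 12 antisense RNAs (circles) and their partners (triangles) in control (ctl, open) and shSTN1 (sh, filled) libraries, with mean and SD beside each group of 3. PRKAG2-AS1 and KIF25-AS1 move against their partners, and the other 10 pairs move together.

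The 21 opposite pairs comprised 14 with a higher antisense RNA and a lower partner, and 7 with the reverse. The log2 ratio of antisense RNA to partner (0.1 CPM added to both) is given as a description of these pairs, since their opposite calls chose them, and an exact permutation test of 3 libraries against 3 cannot go below p = 0.1. PRKAG2-AS1 showed the widest difference. It starts 83 bases from PRKAG2, which encodes a regulatory subunit of the energy-sensing kinase AMPK. PRKAG2-AS1 measured 5.2, 3.85 and 5.58 CPM in control and 0.83, 0.458 and 0.227 CPM in the libraries labelled shSTN1 (log2 fold change -3.22, SE 0.448, adjusted p = 4.52e-11). PRKAG2 measured 34.2, 33.1 and 26.9 CPM against 59.3, 52.0 and 54.5 CPM (log2 fold change 0.81, adjusted p = 2.14e-09). The log2 ratio went from -2.67 ± 0.411 to -6.64 ± 0.698, a difference of -3.97. PRKAG2-AS1 had 328 reads in all, so it lies just inside the rule.

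Antisense RNAs that rose against a falling partner included KIF25-AS1, LBX2-AS1, USP2-AS1 and PARD6G-AS1. KIF25-AS1 measured 1.78, 1.74 and 1.79 CPM in control and 6.3, 4.35 and 5.33 CPM in the libraries labelled shSTN1, while the kinesin gene KIF25 measured 1.54, 2.51 and 2.33 CPM against 0.781, 1.01 and 0.965 CPM. Their log2 fold changes were 1.58 and -1.21, and the log2 ratio differed by 2.63. LBX2-AS1 (0.85) and the homeobox gene LBX2 (-1.21) differed by 2.02 in the ratio, with 31.2% of the exonic bases of LBX2-AS1 shared with LBX2. USP2-AS1 starts 52 bases from USP2, the gene of a deubiquitinating enzyme, and shares no exonic base with any gene. It measured 5.15, 4.38 and 3.9 CPM against 6.74, 7.83 and 6.01 CPM (log2 fold change 0.62), and USP2 measured 25.2, 27.9 and 28.8 CPM against 6.98, 6.05 and 9.08 CPM (log2 fold change -1.90). PARD6G-AS1 (1.43) and the cell polarity gene PARD6G (-0.53) also differed in direction without a shared exonic base, and the control values of PARD6G-AS1 spread from 1.83 to 4.01 CPM.

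Other pairs of this direction passed in both genes. WAC-AS1 (0.51) and WAC (-0.60), KDM4A-AS1 (0.70) and the histone demethylase gene KDM4A (-0.49), and the uncertain pair NUTM2A-AS1 (0.46) and NUTM2A (-1.70), whose log2 ratio differed by 2.13, were among them. TMPO-AS1 (0.84) rose beside TMPO (-0.40), the gene of a protein of the nuclear lamina, STARD7-AS1 (0.64) beside STARD7 (-0.42), a lipid transfer protein gene, and KTN1-AS1 (0.65) beside KTN1 (-0.25). TP73-AS1 (0.19) stood beside a lower TP73 (-1.69), the p53 family gene, with the limit on its call given above. PAXIP1 has an antisense RNA on each side. PAXIP1-AS2 rose by 0.76, from 5.49, 6.53 and 5.36 CPM to 9.47, 10.1 and 9.93 CPM, and PAXIP1-AS1 fell by 0.37, from 13.6, 11.6 and 14.8 CPM to 9.67, 10.3 and 10.8 CPM. PAXIP1 was lower by 0.26 on the log2 scale (adjusted p = 0.00648), and its p was 0.0769 without shSTN1 replicate 1.

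In the reverse direction, a lower antisense RNA stood beside a higher partner. TMEM147-AS1 measured 28.8, 31.4 and 33.2 CPM in control and 17.1, 17 and 16.6 CPM in the libraries labelled shSTN1, and TMEM147, an endoplasmic reticulum membrane protein gene, measured 112, 104 and 118 CPM against 168, 153 and 153 CPM. The log2 fold changes were -0.88 and 0.50. LOXL1-AS1 (-0.48) fell beside LOXL1 (0.95), which encodes an enzyme that crosslinks elastin. OIP5-AS1 (-0.45) fell beside OIP5 (0.64), a centromere protein gene that it meets tail to tail. LAMTOR5-AS1 (-1.36) fell beside LAMTOR5 (0.22), a gene of the lysosomal Ragulator complex. ZNF674-AS1 measured 5.25, 6.35 and 5.36 CPM against 3.91, 3.57 and 3.18 CPM (log2 fold change -0.67), and ZNF674 measured 3.56, 3.53 and 3.09 CPM against 5.03, 6.14 and 3.69 CPM (0.55, adjusted p = 0.0137). Leaving out control replicate 3 moved the p of ZNF674 to 0.0592, and leaving out shSTN1 replicate 2 moved it to 0.141. The starts of this pair are separated by the 68 bases printed above.

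Levels of antisense RNA and partner were compared per kilobase of annotated exon. The antisense RNA was above its partner in every library for 27 of the 154 pairs and below it in every library for 97. The order was mixed within a group in 17 pairs. It differed between the groups in 13. Of these, 8 antisense RNAs were below the partner in all control libraries and above it in all libraries labelled shSTN1, and 5 went the other way. AFAP1-AS1 had 1.72 ± 0.212 CPM per kilobase in control, where AFAP1 had 6.42 ± 0.909, and 12.8 ± 0.667 in the libraries labelled shSTN1, where AFAP1 had 11 ± 0.31. LBX2-AS1, ZNF529-AS1, MNX1-AS1 and FOXD3-AS1 also came to lie above their partners. For MNX1-AS1 the 2 genes were nearly level in shSTN1 replicate 2, at 1.41 against 1.40 CPM per kilobase. In PTPRG-AS1, SNAI3-AS1 and CCDC18-AS1 the antisense RNA did not pass and the partner was lower. PTPRG-AS1 measured 0.916 ± 0.172 and 0.972 ± 0.167 CPM per kilobase, while PTPRG, a receptor tyrosine phosphatase gene, went from 1.86 ± 0.22 to 0.206 ± 0.0263. ARRDC1-AS1 showed the reverse order, with 14.8 ± 1.83 CPM per kilobase in control and 5.35 ± 0.275 in the libraries labelled shSTN1, and ARRDC1 measured 8.29 ± 0.806 and 8.41 ± 0.888.

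**Figure D5:**
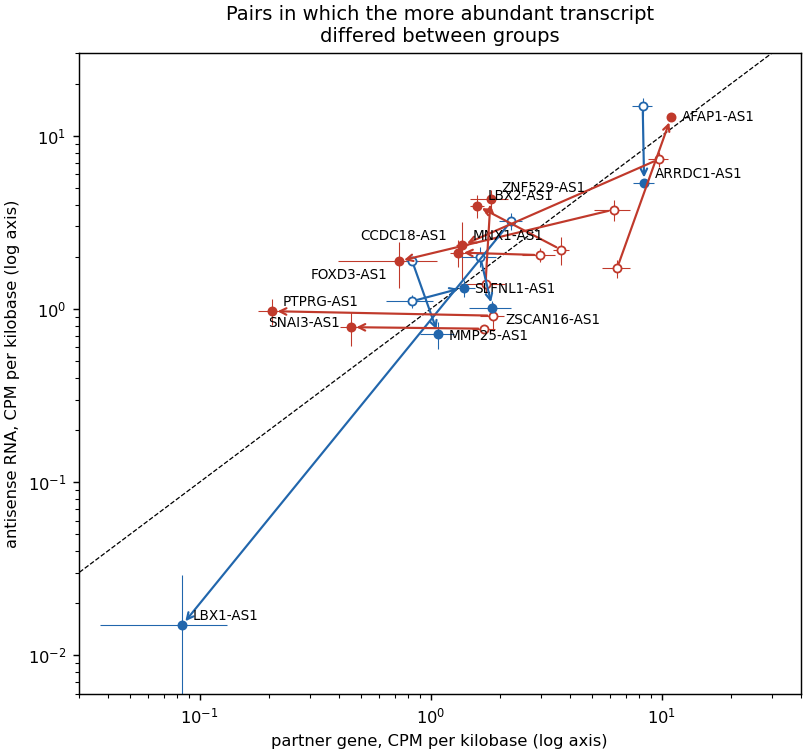
Mean level of antisense RNA (y axis) against partner (x axis) in CPM per kilobase of exon, both axes logarithmic, for the 13 pairs whose order differed between groups; arrows run from control (open) to shSTN1 (filled), bars are SD of 3 libraries and the dashed line marks equal levels. The 8 red arrows end above the line and the 5 blue arrows below it, with LBX1-AS1 near 0 at the end.

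Antisense RNAs with a role described in the literature were taken as a list of 41 names, chosen with earlier results of these data known. Of these, 29 were members, and 12 were higher, 13 were lower and 4 did not pass, with a median log2 fold change of 0.06. Beside it, 74.1% of all genes tested and 79.0% of those with 300 or more reads passed, with a median of -0.03 over all genes. Nothing about the list is read from its count. Among those that rose was SBF2-AS1 (0.79), which measured 4.09, 4.12 and 3.85 CPM against 6.25, 7.38 and 7.21 CPM, without overlap. SBF2 rose as well, by 0.54 on the log2 scale, but SBF2-AS1 shares 32.2% of its exonic bases with SBF2. MCM3AP-AS1 (-0.79) fell, while MCM3AP did not pass. ZEB1-AS1 overlapped between groups, with 5.2, 4.12 and 3.09 CPM in control and 3.22, 3.25 and 2.04 CPM in the libraries labelled shSTN1 (log2 fold change -0.53, adjusted p = 0.032). Its p was 0.217 without control replicate 1, 0.058 without control replicate 2 and 0.174 without shSTN1 replicate 3, and 0.061 by DESeq2 with all libraries. NNT-AS1 overlapped as well (-0.33, adjusted p = 0.0308), and its p lay between 0.0596 and 0.119 without any one of control replicates 1 and 2 or shSTN1 replicates 1 and 2. HOXA-AS2, PSMA3-AS1, RUSC1-AS1 and TTN-AS1 did not pass, and the p of RUSC1-AS1 was 0.0236 without shSTN1 replicate 3 against 0.069 with it. TTN-AS1 shares 55.4% of its exonic bases with other genes.

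Members were also set beside the genes around them. The same shares were not computed over all genes tested, so nothing particular to antisense RNAs is read from them. Of 155 members with at least 3 tested neighbours within 500 kb, 114 passed the test, and 74 of these had the sign of the neighbours' median log2 fold change and 40 the opposite sign. Among the 59 that passed at 2-fold or more, 34 had a neighbours' median within 0.5 of 0. LBX1-AS1 was one of these, with a median of -0.13 over 16 neighbours. PRKAG2-AS1 was another, with 0.05 over 5 neighbours. AFAP1-AS1 rose among 4 neighbours whose median was -0.61, and DLGAP1-AS2 and HOXA-AS3 had the sign of their neighbours' median.

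The counting limits these values. The library kit named in the labels does not mark the strand, so reads from bases that a gene and its antisense RNA share cannot be told apart. In the annotation used, 136 of the 168 members share exonic bases with another gene, 41 of them at least 25%, with a median over all members of 7.96%. Of the 32 members that share none, 12 were higher and 12 were lower (75.0% past the test), a share near that of all members. Some of these 32 still overlap the span of their partner, DLGAP1-AS1, DLGAP1-AS2 and PARD6G-AS1 among them. Intronic reads of the partner could be counted there, so this subset does not remove the limit.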

How the data were processed

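The values deposited by the authors are raw counts of reads per gene in 6 libraries, whole numbers without scaling. The submitters' processing notes name the build GRCh38 and the tools STAR 2.7.2b, featureCounts 2.0.1, cutadapt and FastQC. Which annotation release and strand setting the counting had is not given in the sources used here. From 60668 rows, 45 second copies of pseudoautosomal genes were left out. Coordinates, gene layout and exon lengths came from GENCODE 29 (58516 rows matched by identifier), and start sites and sequences from RefSeq (GRCh38.p14).

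The counts were fitted with edgeR 4.0.16 in R 4.3.3 (filterByExpr, TMM factors, robust quasi-likelihood test, shSTN1 minus control, all 6 libraries, no covariate). The Benjamini-Hochberg adjustment ran over all 17451 genes tested, and an adjusted p under 0.05 passed. CPM values use TMM-scaled library sizes, and an SE belongs to the difference of the group means on the log2 CPM scale (prior count 2). Members and lists were chosen with earlier results of these data known. Named genes were the 12 members with most reads, the 12 highest and 12 lowest log2 fold changes without overlap, up to 12 pairs in each of the same and opposite directions, and a list of described antisense RNAs; TM4SF1-AS1, TMEM9B-AS1, TRAM2-AS1, HOXB-AS2, LAMTOR5-AS1 and the pairs whose order per kilobase differed were named after their values were seen. A few genes named by this rule are left out of the text. Other marker lists, whose part in the results was not tested, were those of leukocytes (14.6 to 17 CPM summed in control, 15.2 to 18.9 CPM in shSTN1), endothelium (13.9 to 18.8 and 2.04 to 2.54 CPM), fibroblasts (64.1 to 78.3 and 145 to 161 CPM) and acinar cells (5.05 to 5.63 and 9.33 to 10.7 CPM); CD3E, TYROBP, PECAM1, PRSS1, PNLIP and CELA3A were at 0 in both groups. Replicate numbers did not pair the libraries (correlations of deviations -0.0124, 0.0195 and -0.0323). Libraries of a group were distinct beyond counting noise (chi-square over its degrees of freedom 3.02 to 8.89). The test script was tested on simulated data. Alternatives were upper-quartile and RLE factors, 2 other filters on low counts, DESeq2 1.42.0, limma-voom (limma 3.58.1), a replicate block, an adjusted p under 0.01, other member minimums, members without shared exonic bases, another added CPM for ratios, and leaving out each library.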

Additional observations from a re-analysis of the deposited data

How the results depend on the processing

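With other scaling factors or filters, DESeq2 or limma-voom, between 117 (DESeq2) and 126 (upper-quartile factors) antisense RNAs passed, and 106 at an adjusted p under 0.01. Leaving out 1 library gave 116 to 120 members past the test, 55 to 64 at 2-fold, 135 to 138 without overlap, 51 to 57 pairs in the same and 19 to 21 in opposite directions, 21 opposite pairs with ratios that did not overlap, and a log2 fold change of STN1 from -0.22 to -0.06. The replicate numbers do not pair the libraries; with the replicate block 123 members passed (124 without it), with 60 same-direction and 22 opposite pairs. The minimum number of reads sets the counts by construction. At 100 reads, 216 members passed, 134 at 2-fold, 229 without overlap, with 123 same-direction and 34 opposite pairs. At 1000 reads, the values were 46, 18, 50, 21 and 8, and for members without shared exonic bases 24, 14, 26, 15 and 3. Over 117 named genes, 1579 of 1638 values under alternatives kept their direction and their side of the threshold, 51 no longer passed, 3 newly passed and 5 changed sign. The sign changes were all in genes that did not pass. Leaving out 1 library at a time, TTN-AS1 (0.06 with all) ran from -0.05 to 0.21 and ZNF529 (0.07) from -0.05 to 0.25. The cause was not tested. Partners whose call ended without 1 library were GABPB1, MAGI2, THAP9, RUSC1, MRPL20 and NNT, beside those given above. With 3 libraries a group, a member near 300 reads rests on few reads a library, and small differences under the spread between libraries were not detectable at this depth.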
